A study of Mus musculus with 5 samples.

Results

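The genes described here are core members of the Notch pathway in the mouse: the receptor genes Notch1, Notch2 and Notch3, the ligand genes Dll1, Dll3, Jag1 and Jag2, and the effector genes Hes1, Hes5 and Rbpj. These 10 genes were chosen as pathway members without a filter on their peaks, though with earlier results of these data known. Every ZFP24 peak with its centre within 100 kb of one of their transcript starts (GENCODE M21 basic) was taken from the deposited lists. That gave 7 of the 4643 peaks of oligodendrocyte progenitor cells (OPC) and 3 of the 1752 peaks of oligodendrocytes (OLG). Of the 10 members, 6 had an OPC peak, 3 had an OLG peak, 1 had both and 2 had neither. Over all protein-coding genes, 43.5% had an OPC peak within 100 kb, 24.2% an OLG peak and 15.8% both. ZFP24, also named ZFP191, is a zinc finger transcription factor, and its positions had been mapped by chromatin immunoprecipitation sequencing (ChIP-seq).

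Notch receptors sit on the cell surface and are cut after a Delta-like or Jagged ligand on a neighbouring cell binds them. The freed intracellular part enters the nucleus, joins the DNA-binding protein RBPJ and switches on target genes, among them the Hes genes, which encode basic helix-loop-helix repressors. In the oligodendrocyte lineage, canonical Notch signalling is known for holding progenitors back from differentiation.

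Cells came from postnatal day 7 mouse brain on the C57BL/6 strain and were isolated by immunopanning, with wild-type and Zfp191-null cells for each cell type. OLG had been differentiated from OPC for 5 days without PDGF and with 40 ng/ml triiodothyronine. Each genotype and cell type gave 1 library, an input library was pooled from all of them, and the labels give both genotypes of a cell type the same deposited list. The labels name the null allele only as Zfp191-null and do not say how many animals were pooled. The lists hold positions only, so depth is unknown, neither ZFP24 loss nor the cell type could be checked against markers, and the read signal of the control libraries was not analysed here. With 1 library a group, no difference between OPC and OLG was tested, and presence in a list depends on depth and calling as well as on binding.

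**Figure D1:**
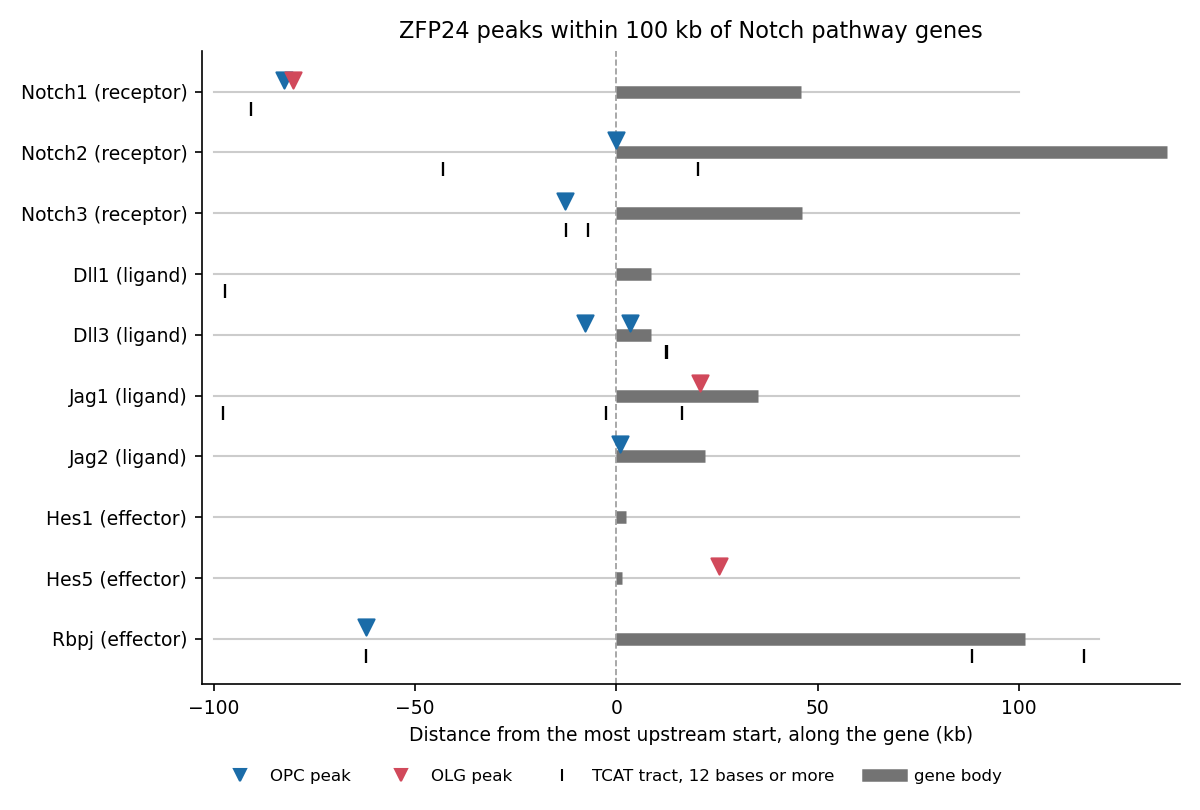
Position of each peak along the 10 genes, in kb from the most upstream start, with the direction of transcription to the right. Blue triangles are OPC peaks, red triangles OLG peaks, black ticks TCAT tracts of at least 12 bases and grey bars gene bodies. Notch2 has an OPC peak at the start and Jag2 has one centred 796 bp downstream of it. The OLG peaks are those of Notch1, Jag1 and Hes5.

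An OPC peak lay within 100 kb of all 3 receptor genes, against 43.5% of all protein-coding genes. Notch1, 1 of the 3, also had a peak in OLG, against 24.2% of all genes. The 3 OPC peaks lay in different kinds of place. At Notch2 (chromosome 3, 98013538 to 98150361, plus strand, GRCm38) the peak sat on the promoter (chr3:98013463-98013671), with its centre in the 5′ UTR in exon 1 of 34, 29 bp downstream of the start. Only 0.396% of all 21703 protein-coding genes had an OPC peak closer to a start. The peak covered 75 bases before the start and 134 from the start on. Notch2 was also the only protein-coding gene with a start within 100 kb of this peak, and the next one, Sec22b, a vesicle trafficking gene, was 112340 bp away. The nearest OLG peak was 1145560 bp from the Notch2 start. The 250 bases before the Notch2 start are shown because this is the closest of all member peaks. They are from the RefSeq promoter table (GRCm38.p6, chr3:98013288-98013537, plus strand), 5′ to 3′, and capitals mark the bases inside the OPC peak.
Notch2 upstream: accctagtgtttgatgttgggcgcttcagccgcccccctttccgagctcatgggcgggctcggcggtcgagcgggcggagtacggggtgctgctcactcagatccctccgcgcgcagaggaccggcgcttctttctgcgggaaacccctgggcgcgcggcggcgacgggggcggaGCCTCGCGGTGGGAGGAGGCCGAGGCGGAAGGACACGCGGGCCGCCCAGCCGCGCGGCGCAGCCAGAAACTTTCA

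The Notch3 peak (chr17:32179476-32179684) was intergenic, 12728 bp upstream of the start of Notch3 (chromosome 17, 32120820 to 32166852, minus strand). The start of Ephx3, an epoxide hydrolase gene, was closer, at 9883 bp. A tandem repeat of TCAT, a motif that ZFP24 is known to bind, ran across the edge of this peak. The tract was 28 bases long (32179457 to 32179484) and its nearest base was 96 bp from the peak centre, so that most of it lay outside the 209 bp peak. In OLG the nearest peak to the Notch3 start was 400215 bp away. The sequence shows the peak together with the whole tract (chr17:32179457-32179684, minus strand, along Notch3), with the tract in capitals.
Notch3 OPC: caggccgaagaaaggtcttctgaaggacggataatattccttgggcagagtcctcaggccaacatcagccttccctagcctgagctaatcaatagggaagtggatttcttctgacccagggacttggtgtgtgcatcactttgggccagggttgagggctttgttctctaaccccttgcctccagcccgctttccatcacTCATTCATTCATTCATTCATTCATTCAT

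At Notch1 (chromosome 2, 26457903 to 26503822, minus strand) both peaks were far upstream and sat at another gene. The OPC peak (chr2:26586287-26586495) was 82569 bp and the OLG peak (chr2:26584114-26584334) 80402 bp from the Notch1 start. Both were in introns of Egfl7, which encodes a secreted protein of blood vessel endothelium, and the nearest Egfl7 starts were 239 bp and 344 bp away. The OPC peak lay in intron 2 and the OLG peak in intron 1 of the same Egfl7 transcript. Their centres were 2167 bp apart and 1952 bp lay between their edges, so this was not a shared site. The OPC sequence is shown (minus strand, along Notch1) because it was the only member peak with the E-box CACGTG, which Hes and other helix-loop-helix proteins can bind. Capitals mark that E-box and an N-box, CACNAG.
Notch1 OPC: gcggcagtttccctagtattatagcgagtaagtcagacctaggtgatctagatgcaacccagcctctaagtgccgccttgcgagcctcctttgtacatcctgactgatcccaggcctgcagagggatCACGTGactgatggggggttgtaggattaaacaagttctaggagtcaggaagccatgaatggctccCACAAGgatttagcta

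Among the 4 ligand genes, Dll3 and Jag2 had OPC peaks, Jag1 had an OLG peak and Dll1 had none in either list. Jag2 (chromosome 12, 112907819 to 112929776, minus strand) encodes a transmembrane ligand, and its peak (chr12:112928876-112929084) was centred 796 bp downstream of the start, in coding exon 2 of 26. Its next gene was Nudt14, a nudix hydrolase gene, at 13130 bp. The nearest OLG peak to the Jag2 start was 359055 bp away.

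Dll3 (chromosome 7, 28293553 to 28302238, minus strand), a divergent Delta-like gene whose product is known to act mainly inside the producing cell, was the member with the most peaks, both in OPC. The first (chr7:28298829-28299037) was 3305 bp downstream of the start, in coding exon 4 of 9, and its nearest start was that of Dll3. The second (chr7:28310051-28310259) was 7917 bp upstream, in intron 3 of Timm50, a mitochondrial import gene whose own start was 1917 bp away. Of all protein-coding genes, 16.6% had 2 or more OPC peaks within 100 kb. Dll3 stood in the densest stretch of the 10, with 10 other protein-coding starts within 100 kb, against a median of 1 over the members and 3 over all genes.

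The Jag2 and Dll3 exon peaks are shown because both were centred in coding exons and were rich in CpG. Capitals mark CACNAG in Jag2 and TTCCCA, the reverse complement of the RBPJ core TGGGAA, in Dll3. Both run along the gene on the minus strand.
Jag2 OPC: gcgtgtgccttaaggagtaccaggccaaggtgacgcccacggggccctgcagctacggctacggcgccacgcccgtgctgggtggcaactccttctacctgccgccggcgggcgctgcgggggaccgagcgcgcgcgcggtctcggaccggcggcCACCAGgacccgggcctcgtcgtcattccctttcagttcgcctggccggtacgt
Dll3 exon OPC: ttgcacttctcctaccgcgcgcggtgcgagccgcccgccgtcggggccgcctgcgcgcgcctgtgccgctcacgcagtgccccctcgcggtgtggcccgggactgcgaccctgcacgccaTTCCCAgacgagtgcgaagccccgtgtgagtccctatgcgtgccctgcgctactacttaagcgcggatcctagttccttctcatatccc

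Jag1 (chromosome 2, 137081456 to 137116644, minus strand) encodes a ligand that axons present to progenitors. Its OLG peak (chr2:137095709-137095929) lay inside the gene, in an intron, number 6 of the transcript with 26 exons, 20825 bp downstream of the start. No other protein-coding start lay within 100 kb of it, and the next was that of Slx4ip at 190276 bp. In OPC the nearest peak to the Jag1 start was 125582 bp away, outside the window, and 104757 bp from the OLG peak. Dll1 (chromosome 17, 15367354 to 15375976, minus strand), a Delta ligand, was 151457 bp from the nearest peak in OPC and 3005045 bp from that in OLG. The Jag1 peak is shown (minus strand) as the only OLG peak inside a member gene, with CACNAG in capitals.
Jag1 OLG: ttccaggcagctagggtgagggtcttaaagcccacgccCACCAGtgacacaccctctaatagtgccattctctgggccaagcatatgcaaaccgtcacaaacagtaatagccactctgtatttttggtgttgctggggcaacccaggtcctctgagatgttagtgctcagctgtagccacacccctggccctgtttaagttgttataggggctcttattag

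Among the 3 effector genes, Rbpj had an OPC peak within 100 kb, Hes5 had an OLG peak and Hes1 had neither. Rbpj (chromosome 5, 53555834 to 53657362, plus strand), whose product is the DNA-binding partner of the cleaved receptor, had an intergenic OPC peak (chr5:53493564-53493772) 62166 bp upstream of the first of its 5 starts. Rbpj was the nearest protein-coding gene by far, since the next start, that of Cckar, a cholecystokinin receptor gene, was 213585 bp away. The peak held a 26-base TCAT tract (53493632 to 53493657) 11 bp from its centre. In OLG the nearest peak was 772686 bp from an Rbpj start. The Rbpj peak is shown (plus strand) as the only member peak whose central 200 bp held such a tract. The tract, which reads GAAT on this strand, is in capitals.
Rbpj OPC: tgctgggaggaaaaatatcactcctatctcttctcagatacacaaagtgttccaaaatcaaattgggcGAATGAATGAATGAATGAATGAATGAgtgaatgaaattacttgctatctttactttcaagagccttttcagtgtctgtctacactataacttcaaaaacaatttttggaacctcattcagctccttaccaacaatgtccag

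Hes5 (chromosome 4, 154960923 to 154962371, plus strand), a Notch target and repressor, had 1 OLG peak (chr4:154986342-154986562), 25529 bp downstream. It lay in coding exon 21 of 22 of Plch2, a phospholipase C gene, and was nearer to the starts of Pank4 (22319 bp) and Plch2 (24532 bp) than to that of Hes5. The nearest OPC peak was 260856 bp from the Hes5 start, the largest OPC distance of the 10 members. Hes1 (chromosome 16, 30065340 to 30067796, plus strand), the other Hes target, had no peak within 100 kb, and its nearest ones were 186930 bp away in OPC and 1135074 bp in OLG.

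**Figure D2:**
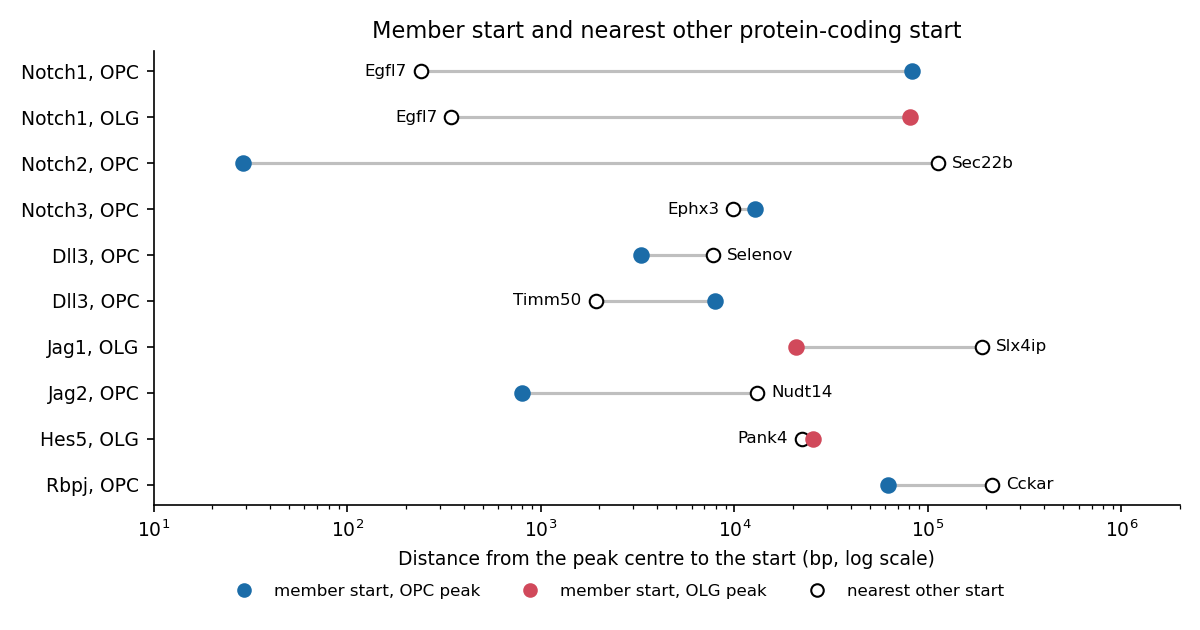
Distance in bp, on a log axis, from the centre of each of the 10 member peaks to the member's start (filled, blue for OPC and red for OLG) and to the nearest other protein-coding start (open, named). The member's own start is the closer one for Notch2, Jag1, Jag2, Rbpj and 1 of the Dll3 peaks, and the other start is closer for the remaining 5 peaks.

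The roles differed in where their peaks lay, as a description of 3 and 4 genes that carries no test. The closest OPC peak was 29 bp away for the receptors, 796 bp for the ligands and 62166 bp for the effectors. The median distance from a start to the nearest OPC peak was 12728 bp over the 3 receptors, 64444 bp over the 4 ligands and 186930 bp over the 3 effectors, and 129704 bp over all 21703 genes. For OLG the medians were 400215 bp, 235476 bp and 772686 bp, and 335106 bp over all genes. Distances overlapped between the roles: the Notch1 distance of 82569 bp was larger than that of Rbpj.

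Read against all protein-coding genes, the member shares lay above the background in some windows and below it in others, with too few genes to tell them apart from it. In OPC, 6 of 10 members (60%, exact 95% Clopper-Pearson interval 26.2 to 87.8%) had a peak within 100 kb, where 43.5% of genes did. Within 10 kb it was 3 of 10, namely Notch2, Dll3 and Jag2 (30%, 6.67 to 65.2%), against 12.7%, and within 1 kb 2 of 10, Notch2 and Jag2 (20%, 2.52 to 55.6%), against 8.20%. In OLG, 3 of 10 (30%, 6.67 to 65.2%) had a peak within 100 kb against 24.2%. None had one within 10 kb (0 of 10, which allows up to 30.8% by the same interval) or within 1 kb, against 6.47% and 4.06%. Notch1 alone, 1 of 10, had peaks of both lists within 100 kb, against 15.8% of genes. The background share lay inside the interval in each of these comparisons, and the intervals cover counting over 10 genes only. The members held 0.7 OPC peaks and 0.3 OLG peaks a gene within 100 kb, against means of 0.658 and 0.299.

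**Figure D3:**
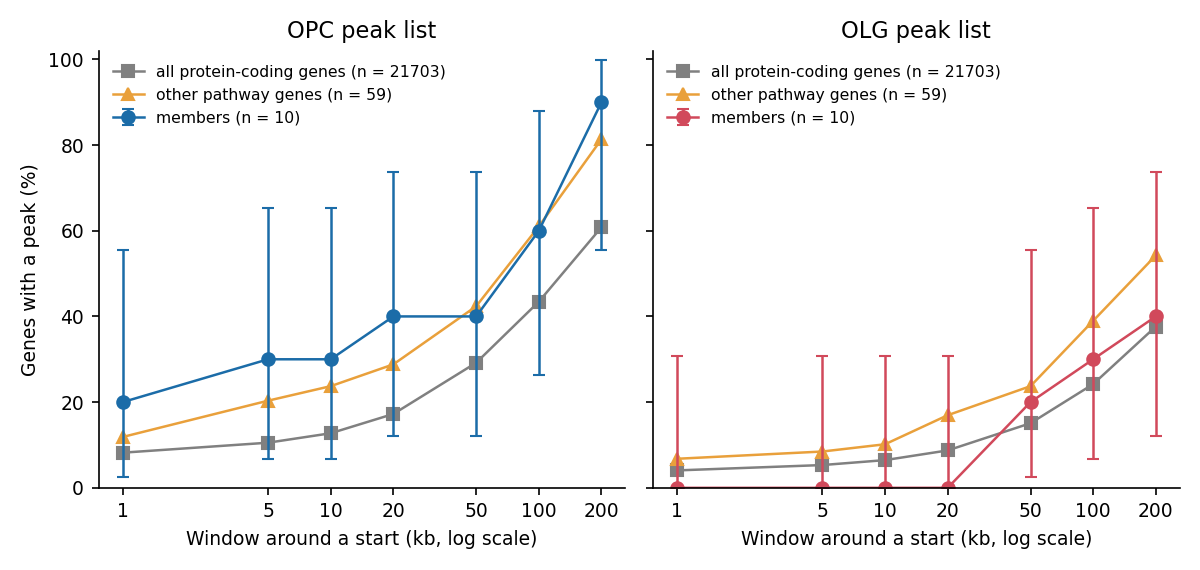
Share of genes with a peak (%) against the window around a start (kb, log axis), for OPC on the left and OLG on the right. Circles are the 10 members with exact 95% intervals, triangles the 59 other pathway genes and squares all 21703 protein-coding genes. The intervals of the members are wide and hold the share of all genes in both lists at every window shown.

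Overlap between the lists was low over the whole genome, at 5.47% of all OPC peaks and 14.5% of all OLG peaks. Of the 7 OPC and 3 OLG member peaks, 0 overlapped a peak of the other list by 1 bp, and at those shares so few peaks show nothing particular to these genes. The closest approach was the Egfl7 pair near Notch1. For the other members with a peak, the nearest peak of the other list was at least 103981 bp away from the member's peak, the value of the upstream Dll3 peak.

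In sequence, the member peaks were of different kinds. The 200 bp around the centre held 27 CpG dinucleotides at Notch2, 27 in the Dll3 exon and 26 in the Jag2 exon, with GC contents of 76%, 69.5% and 72.5%. At least 26 CpG, a bound set after these values were seen, was found in 3.60% of all OPC peaks and 0.237% of flanking windows 2 kb away. The other 4 OPC peaks held 1 to 5 CpG, around the OPC median of 4, and Rbpj was the lowest with 1 CpG and 35% GC. The 3 OLG peaks held 1 at Notch1, 2 at Jag1 and 7 at Hes5, all below the OLG median of 10. Starts of the members themselves were GC-rich, with a median of 70.2% in 200 bp, against 59.5% over all genes and 65% over genes with an OPC peak within 10 kb.

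**Figure D4:**
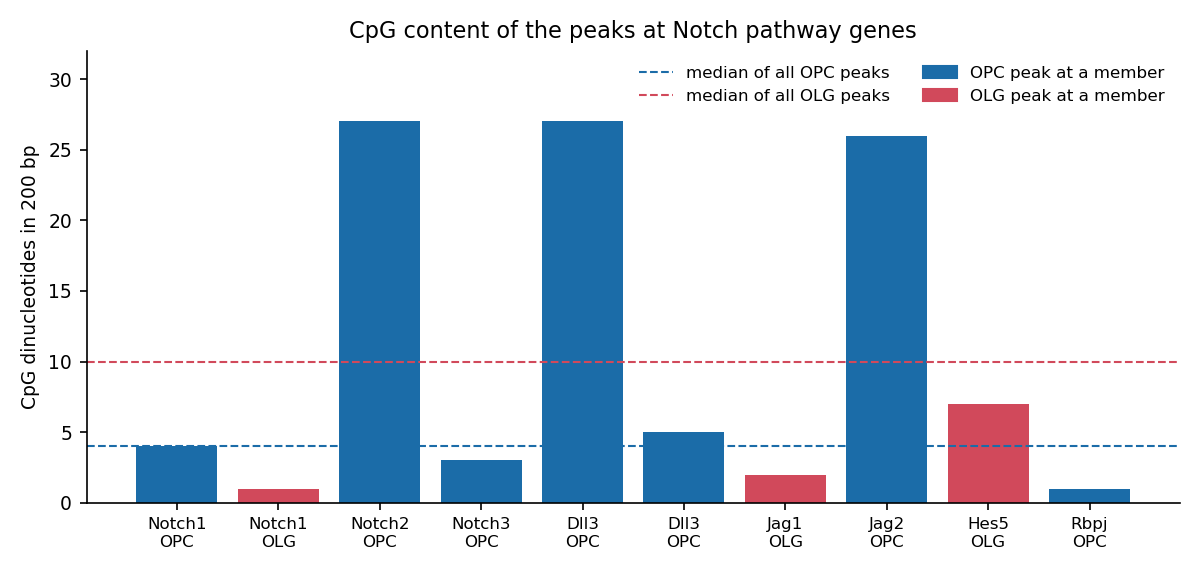
Number of CpG dinucleotides in the 200 bp around the centre of each member peak, blue for OPC and red for OLG, with dashed lines at the medians of all OPC and all OLG peaks. Notch2, the Dll3 exon and Jag2 stand at 26 or 27, and the other 7 bars are at 7 or lower.

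TCAT tracts were found near 7 of the 10 members, and the same share over all genes was not computed. There were 14 tracts of at least 12 bases within 100 kb of a member start. Those at Rbpj (26 bases) and Notch3 (28 bases), 2 in all (14.3%), came within 100 bp of a peak centre in OPC and 0 did so in OLG. Over chromosomes 1 to 19 and X, 4.42% of 16888 tracts came as close to a peak centre in OPC and 0.799% in OLG. The member share in OPC was higher, but it rests on 2 tracts and was not tested. The sets differed in tract length, with a median of 17.5 bases near members and 14 over all tracts. Long tracts without a peak were also present. A 34-base tract upstream of Notch2 was 43042 bp from the nearest OPC peak centre, and a 24-base tract 12469 bp downstream of the Dll3 start was 9153 bp from one. Jag2, Hes1 and Hes5 had no tract within 100 kb. Within the central 200 bp, 1 of 10 member peaks held a tract, against 12.2% of OPC and 5.71% of OLG peaks.

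Letters of Notch-related motifs were present at about the rate of other peaks. On either strand, TGGGAA was in 1 of 7 OPC member peaks (15.1% of all OPC peaks), and CACNAG in 2 of 7 (33.8%) and in 1 of 3 OLG member peaks (33.6%). CACGTG was in 1 of 10, against 4.07% of OPC and 3.20% of OLG peaks. The 3 motifs do not contain each other. The RefSeq promoter table (GRCm38.p6, 300 bp a start) matched 9 of the 10 members, all but Hes1, with 11 entries. Of these, the Hes5 entry and both Rbpj entries, which overlap each other, held TGGGAA. Over 20059 promoters of protein-coding genes, 24.3% held it. No member promoter held a TCAT tract of 12 bases or CACGTG, against 0.0698% and 8.06% of all promoters. An Rbpj entry held a TCAT tract of 11 bases, just under that bound. A match is only a match of letters.

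Further along the pathway, 59 other genes were described from a list of a further receptor, ligands, processing enzymes, modulators, nuclear cofactors and targets. The further receptor gene, Notch4, was 41810 bp from its nearest OPC peak and 83029 bp from its nearest OLG peak. An OPC peak lay within 10 kb for 14 of the 59 genes (23.7%, against 12.7% of all genes) and within 1 kb for 7 (11.9%, against 8.20%). An OLG peak lay within 10 kb for 6 (10.2%, against 6.47%) and within 1 kb for 4 (6.78%, against 4.06%). Within 100 kb, 36 of the 59 (61.0%, against 43.5%) had an OPC peak and 23 (39.0%, against 24.2%) an OLG peak. None of these shares was tested. Coactivators (8 of the 59 genes) and corepressors (9 of the 59) of the RBPJ complex made up 8 of the 14 genes with an OPC peak within 10 kb. The other groups had fewer. They were 2 of 7 other receptors and ligands, 0 of 8 receptor-cutting enzymes, 3 of 18 modulators and 1 of 9 other targets. This grouping was made after the distances were known, so the share is a description that was not tested. Within that distance, 4 of 8 coactivator genes had a peak in OPC and 0 in OLG. The 4 were Snw1, which encodes an RBPJ-binding cofactor, at 106 bp, and all 3 Mastermind genes, Maml1 at 257 bp, Maml2 at 441 bp and Maml3 at 2037 bp. The Maml1 and Maml2 peaks were centred in coding exon 1 and the Maml3 peak in intron 1.

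The corepressor group had 9 genes, of which 4 were within 10 kb of a peak in OPC and 3 in OLG, against 12.7% and 6.47% of all genes. Tle1, a Groucho corepressor gene that works with Hes proteins, had a site shared by both lists, 191 bp (OPC) and 195 bp (OLG) from its start. Ncor1, a nuclear receptor corepressor gene, had an OPC peak 312 bp upstream, and Spen, the gene of a corepressor that binds RBPJ, an OLG peak at 643 bp. Hdac1, a histone deacetylase gene past the first 15 genes by distance and named after its values were seen, had an OPC peak 7304 bp upstream.

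Among receptor processing and turnover genes, Dtx1 (a Deltex gene, 140 bp) and Itch (a ubiquitin ligase gene, 179 bp) had OPC peaks. Fbxw7, which marks cleaved Notch for degradation, had a peak in each list upstream of its start, at 1021 bp in OPC and 1284 bp in OLG. These 2 peaks did not overlap, with 48 bp between their edges, and the OLG peak held a 13-base TCAT tract. Among other ligand genes, the Delta-like genes Dll4 (3436 bp upstream) and Dlk2 (4575 bp) had OPC peaks, and the contactin gene Cntn1, whose product is a Notch ligand in oligodendrocytes, had an OLG peak at 713 bp.

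**Figure D5:**
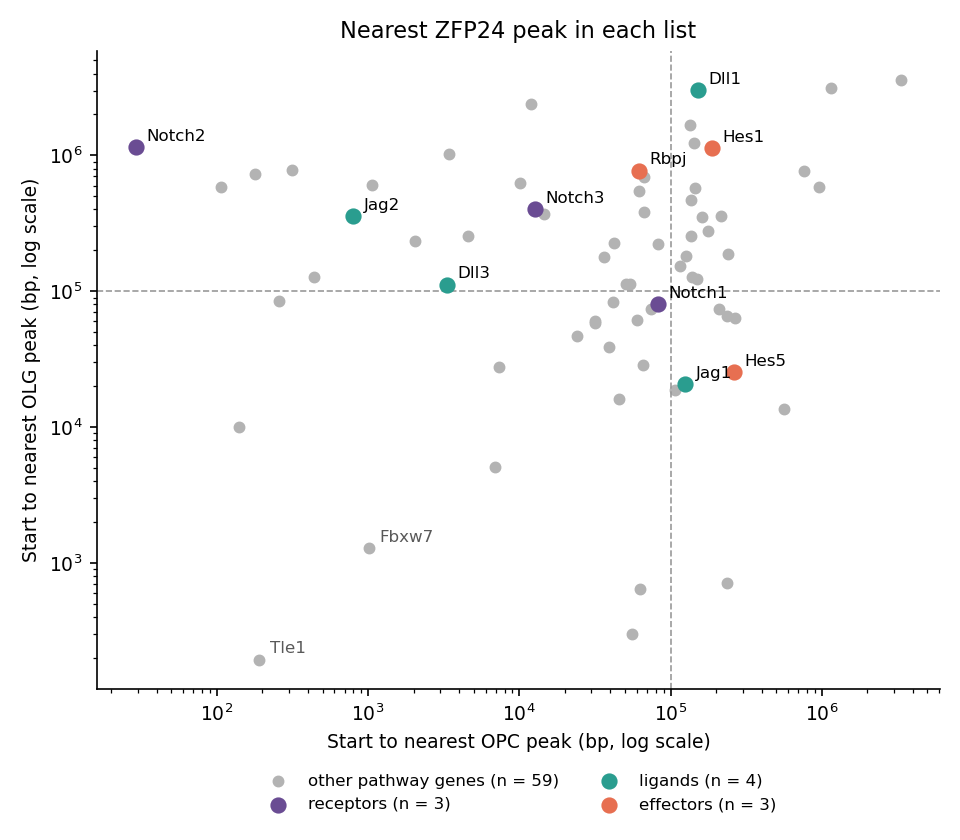
Distance in bp from each gene to its nearest OPC peak (x) and nearest OLG peak (y), both on log axes, for receptors, ligands and effectors (coloured, named) and 59 other pathway genes (grey). Dashed lines mark 100 kb. Notch2, Jag2, Dll3, Notch3 and Rbpj are near an OPC peak alone, Jag1 and Hes5 near an OLG peak alone, Notch1 is within 100 kb of both, and Tle1 and Fbxw7 are the grey points nearest to both lists.

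At the edge of the 100 kb window, the farthest peak inside was the OPC peak of Notch1 at 82569 bp. The nearest outside was an OLG peak 111898 bp upstream of Dll3, in an exon of Samd4b.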

How the data were processed

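ZFP24 ChIP-seq peaks were analysed from 2 deposited lists, 1 for each cell type, with 1 library a group. Per the labels' protocols, chromatin was sheared to 300 to 500 bp and read as 75 nt single-end reads. Per the submitters' processing notes, BWA, HOMER 4.8.3 and mm10 were used. The peak threshold and the way control libraries were used were not given in the sources used here. Each deposited list has 4 columns and no score, and all peaks are 209 bp (OPC) or 221 bp (OLG) wide.

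Python 3.11.15, numpy 2.4.6, pandas 2.3.3 and scipy 1.17.1 were used. All 20 chromosomes were named as in GRCm38.p6 with 0 peaks beyond a chromosome's length. Coordinates are 1-based. Distances run from the peak centre to the nearest of a gene's GENCODE M21 basic starts. The background is every gene with a protein-coding transcript on chromosomes 1 to 19 and X. A tract is tandem TCAT in any phase on either strand. Steps were tested on simulated data. There are no tests, since there are no replicates. Members and lists were chosen with earlier results of these data known. Named genes are all members, the nearest gene of each member peak, and up to 15 other pathway genes with a peak within 10 kb. Hdac1 and Notch4 were named in addition. Other windows, starts, peak edges, overlaps, tract lengths and peak subsets were tried. Some pathway genes counted in the totals are not reported here by name.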

Additional observations from a re-analysis of the deposited data

How the results depend on the processing

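Of 50 counts under other settings, 41 were within 1.5 times of the values above and 9 were not. The 41 include settings of transcript starts, which only Rbpj could change, and counts of 0 under stricter settings, which could not fall. The 41 therefore overstate how stable the counts are. With a 200 kb window the member peaks rose in number to 18 in OPC and 6 in OLG. With peaks that had the member as their nearest protein-coding gene, 4 OPC peaks and 1 OLG peak were left, the latter at 1 member (Jag1). With the lower-numbered peaks of each chromosome by the number in the peak name (a number of unstated meaning), it was 4 OPC peaks, 1 OLG peak and 1 OLG member (Notch1). By that number the Jag1 and Hes5 peaks ranked 135 of 144 and 120 of 121 on their chromosomes. In a 400 bp window, 2 OPC peaks held a TCAT tract, Notch3 being added. Under coding transcripts or the most upstream start alone, distances to the nearest peak were equal in all 40 comparisons. For all members but Rbpj this was fixed in advance, since each has 1 start. Depth and the signal of the control libraries were not measured, which limits all counts. No paired analysis was possible because each group holds 1 library.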

Other observations

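Between 100 and 200 kb from the members, 1 peak was singled out after its values were seen. An OPC peak 192016 bp upstream of Jag1 (chr2:137308556-137308764), in an intron of the non-coding gene Gm14055, had Jag1 as its nearest protein-coding start, with the next, Slx4ip, at 403117 bp. It held 2 matches of TGGGAA and no TCAT tract of 12 bases. With a 200 kb window, 9 of 10 members had an OPC peak within 200 kb and Hes5 did not, where 60.8% of all protein-coding genes had one.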
